A study of Mus musculus with 8 samples.

Results

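The genes described here are those of cholesterol synthesis and of its control by the transcription factor SREBP2, 28 genes chosen by symbol from the 55401 genes of the count table of mouse hepatic macrophages. They are the mitochondrial thiolase *Acat1*, 5 genes of the mevalonate steps, 3 of the isoprenoid steps, 3 of the squalene steps from farnesyl diphosphate to lanosterol, 9 of the sterol steps, 6 regulators of SREBP2 and the sterol carrier *Stard4*. All 28 were above 0.5 CPM (counts scaled to a common library total) in every library, the lowest value being 1.23 CPM. Poly(A) RNA had been sequenced from macrophages taken with an F4/80 antibody and magnetic columns from the livers of WT mice on a standard diet (normal) or of MC4R-KO mice on a Western diet of 6 to 10 wk (steatotic), all on the C57BL/6J background. MC4R-KO mice lack the melanocortin 4 receptor and become obese, so genotype, diet and steatosis differ together between the livers and cannot be told apart. On collagen-coated plates, macrophages of either kind had received vehicle (Veh) or 500 μg/ml of cholesterol crystals (CC) over 24 h, giving 4 groups of 2 libraries. The feeding cohorts of the study were male mice of a stated age, but the age and sex of the mice behind these cultures, and any pooling of livers, are not given in the sources used here, and the labels do not say that replicate libraries came from separate mice. The p-values therefore measure only the spread between these libraries, which may be technical.

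Cells build cholesterol from acetyl-CoA by way of mevalonate, the isoprenoid diphosphates, squalene and lanosterol. When sterols are scarce in the membrane of the endoplasmic reticulum, SCAP carries SREBP2 to the Golgi, where the site-1 and site-2 proteases free the part that enters the nucleus and activates the genes of synthesis. When sterols are abundant, INSIG proteins hold SCAP in the endoplasmic reticulum and these genes are less active. Macrophages take up cholesterol with lipoproteins, dead cells and crystals, and free it in lysosomes.

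The check of the labels came first. *Mc4r*, the knocked-out gene of the steatotic mice, showed 0 counts in every normal-labelled library. In the steatotic-labelled libraries it was between 0.299 and 0.966 CPM. Reads of a knocked-out gene go against the label steatotic as it reads, though these levels lie near the 0.5 CPM of the filter. The 0 counts alone do not go against the label normal. Whether the disrupted allele still gives reads is not given in the sources used here, so *Mc4r* does not show whether the labels are right. Groups are therefore named throughout as normal-labelled or steatotic-labelled, and directions between them follow these labels. Total counts were 58668655 to 74529462 per library, and the defining macrophage gene *Adgre1* (F4/80) was at 814 CPM or more in all 8. RNA of other cells differed between the labels. The summed level of 16 hepatocyte genes was 60.5 to 72.6 CPM in the normal-labelled libraries and 5.55 to 7.23 CPM in the steatotic-labelled libraries, and that of 8 T or NK cell genes 1.89 to 2.42 and 11.7 to 16.1 CPM. That of 7 endothelial genes was 144 to 174 and 256 to 334 CPM. The values of these and of other cell lists are given beside the comparisons.

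Promoter windows, from 250 bases before to 50 bases after the annotated start of transcription, were taken from RefSeq for the mouse build GRCm38.p6 and were found for 23 of the 28 genes. No window was listed for *Acat1*, *Fdps*, *Fdft1*, *Sqle* or *Stard4*. Each window was searched on both strands for the sterol response element, spelled TCACNCCAC, which SREBP2 binds, and for the CCAAT box, spelled CCAAT, which NF-Y binds. The letters of the element stood in 1 of the 23 genes, *Hmgcs1*, from -137 to -129 relative to the start, against 1.36% of the 10458 tested genes with a window. Counted by window, it was in 3.45% of the 29 windows of these genes and 1.24% of all windows. CCAAT stood in 19 of the 23 genes (82.6%), against 42.7% of the tested genes, and in 65.5% of their windows, against 37.4% of all windows. The GC box, spelled GGGCGG and bound by SP1, stood in 20 (87.0%), against 66.4% of the tested genes, and in 79.3% of their windows, against 35.7% of all windows. The E-box CACGTG stood in 5 (21.7%), against 11.7% of the tested genes, and in 20.7% of their windows, against 7.15% of all windows. None of these motifs overlapped the sterol response element in *Hmgcs1*. These are matches of letters, which show neither binding nor its absence. The 250 bases before the start are printed for *Hmgcs1*, which holds the element, and for *Idi1* and *Lss*, the genes with a window that changed most between 2 groups below. They lie at chr13:119690101-119690350, chr13:8885356-8885605 and chr10:76531355-76531604, all on the plus strand, and read 5′ to 3′ with the sterol response element and CCAAT (or its reverse complement ATTGG) in capitals:
Hmgcs1: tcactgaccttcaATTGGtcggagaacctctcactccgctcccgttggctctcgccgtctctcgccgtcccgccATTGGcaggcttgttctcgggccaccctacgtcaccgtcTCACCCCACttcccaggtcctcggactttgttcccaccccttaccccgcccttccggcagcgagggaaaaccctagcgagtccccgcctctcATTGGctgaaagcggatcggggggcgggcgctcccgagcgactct
Idi1: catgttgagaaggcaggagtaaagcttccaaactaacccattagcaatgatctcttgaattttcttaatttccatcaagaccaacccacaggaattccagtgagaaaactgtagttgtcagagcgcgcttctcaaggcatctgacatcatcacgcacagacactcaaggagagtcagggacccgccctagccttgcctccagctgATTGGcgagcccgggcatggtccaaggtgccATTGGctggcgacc
Lss: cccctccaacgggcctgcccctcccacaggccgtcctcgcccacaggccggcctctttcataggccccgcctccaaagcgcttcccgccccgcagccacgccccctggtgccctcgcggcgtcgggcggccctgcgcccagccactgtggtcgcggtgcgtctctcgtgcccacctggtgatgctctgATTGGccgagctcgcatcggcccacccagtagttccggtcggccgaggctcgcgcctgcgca

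**Figure D1:**
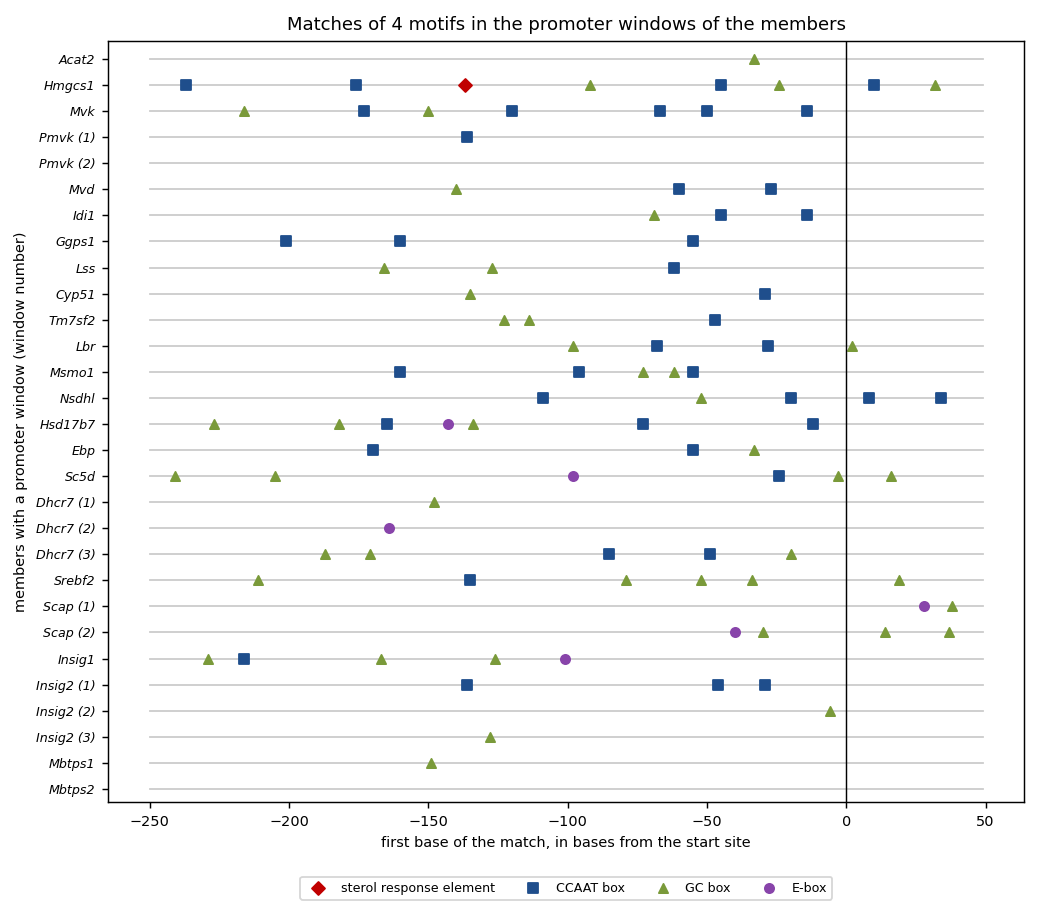
Matches of 4 motifs in the 29 promoter windows of the 23 genes that have one. The x axis is the first base of the match in bases from the start of transcription, each grey line is 1 window and each symbol 1 match. The only sterol response element lies at -137 in *Hmgcs1*, and most CCAAT boxes lie before the start.

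The sum of the 21 genes of synthesis and transport, that is all but *Acat1* and the regulators, was 421 and 401 CPM in the normal-labelled Veh libraries, the highest of the 4 groups. It was 307 and 314 CPM in the normal-labelled CC libraries, 325 and 321 CPM in the steatotic-labelled Veh libraries, and 290 and 299 CPM in the steatotic-labelled CC libraries. The libraries of the normal-labelled Veh group stood apart from the other 6, and no 2 groups overlapped. Fewer cells of a type and less RNA per cell cannot be told apart in such bulk RNA. Levels of different genes were compared per length, as CPM per kb of annotated exons. On this scale *Ebp* was the highest of the 28 in the normal-labelled Veh libraries, at 22.8 ± 1.82 CPM per kb (SD, 2 libraries), ahead of *Srebf2* at 13.5 ± 3.01, *Insig1* at 10.8 ± 0.255 and *Hmgcs1* at 10.8 ± 0.933. *Srebf2*, *Insig1* and *Hmgcs1* were not separated beyond the spread of *Srebf2*. *Stard4* at 1.25 ± 0.0379, *Hsd17b7* at 0.713 ± 0.0164 and *Tm7sf2* at 0.477 ± 0.120 CPM per kb were the lowest.

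**Figure D2:**
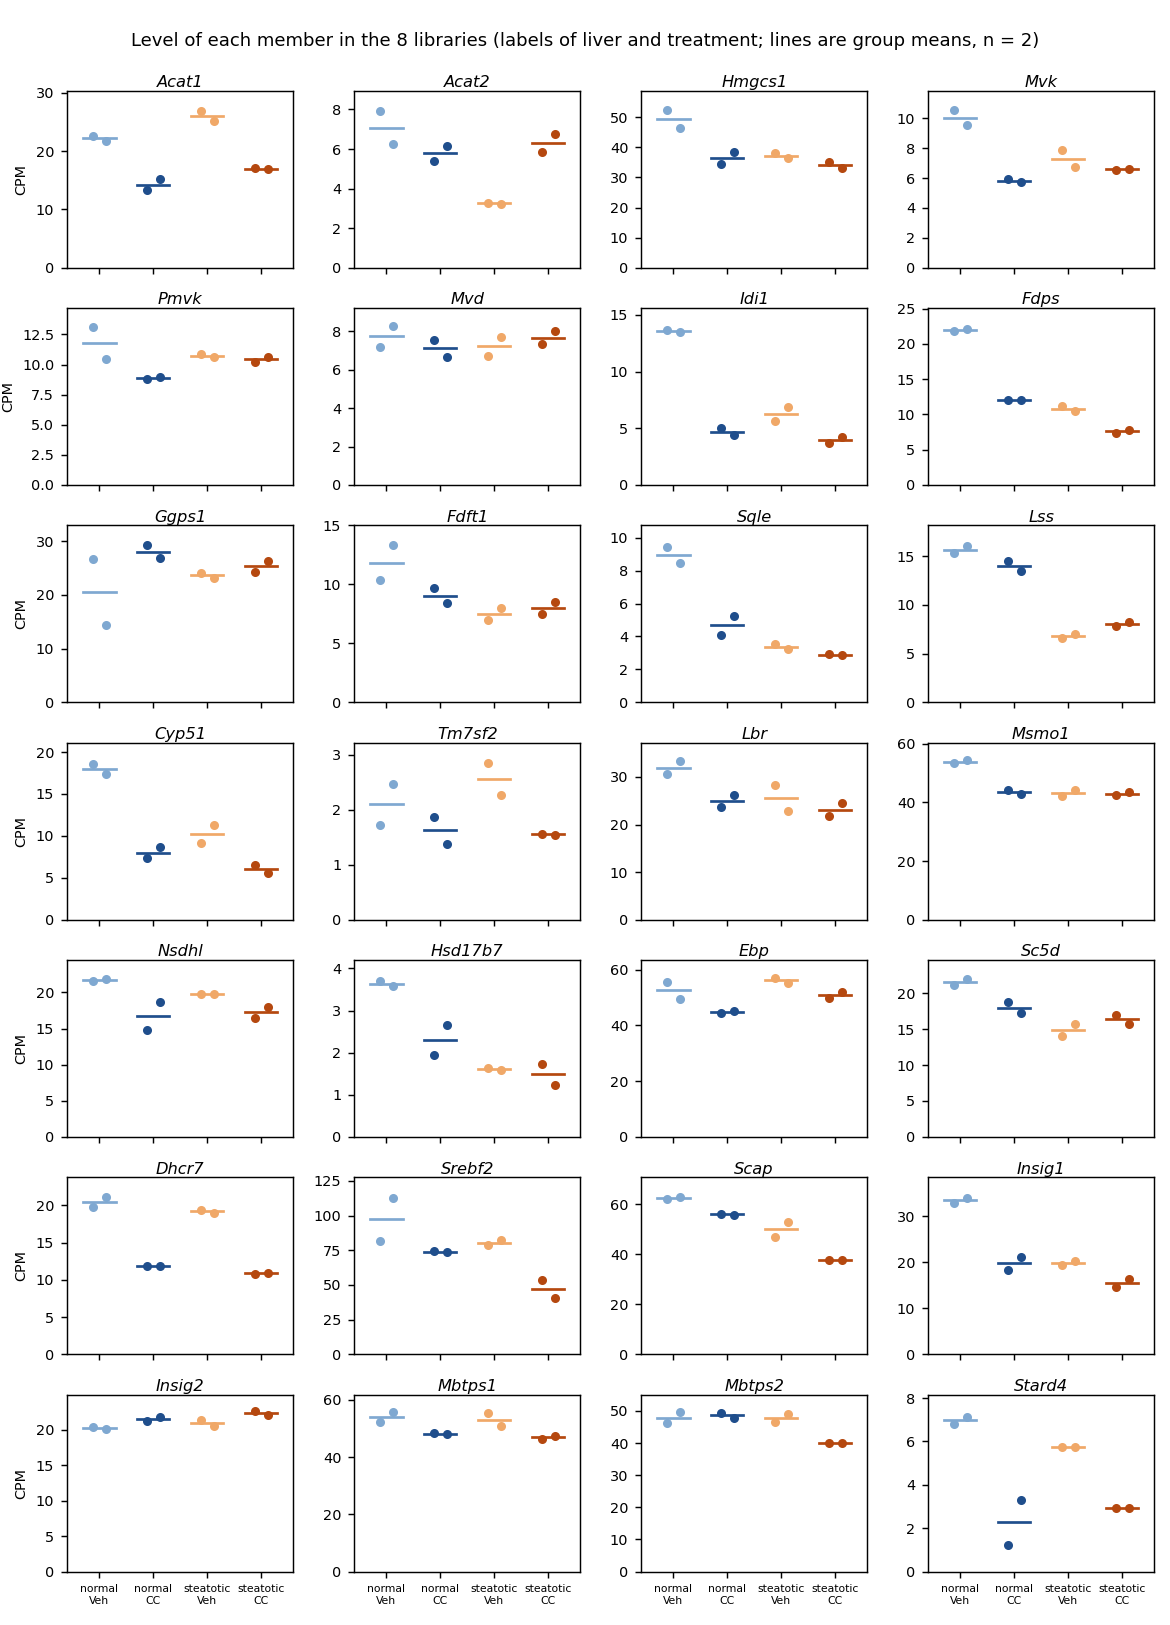
Level of each of the 28 genes in CPM (y axis, from 0) in the 8 libraries, by label of the liver and treatment (x axis). Points are libraries and lines the means of 2. *Idi1*, *Fdps*, *Sqle*, *Cyp51* and *Insig1* were highest in both libraries of the normal-labelled Veh group, while *Acat2* was lowest in the steatotic-labelled Veh libraries.

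Genes were tested with edgeR's quasi-likelihood test across all 15202 genes that passed the filter, with Benjamini-Hochberg adjustment, and a gene is said to have risen or fallen where its adjusted p was under 0.05. Values after ± are standard errors of log2 fold changes, and adjusted p-values are those of edgeR unless DESeq2 is named. The comparisons of CC with Veh and those between the labels share libraries in each group, so their values are set side by side and not related to each other. The first 5 steps lead from acetyl-CoA to isopentenyl diphosphate. *Acat2* (chr17:12942890-12960747, minus strand), the cytosolic thiolase that makes acetoacetyl-CoA, was at 7.90 and 6.24 CPM in the normal-labelled Veh libraries and 5.42 and 6.14 CPM with CC. In the steatotic-labelled libraries it was at 3.29 and 3.22 CPM with Veh and 5.86 and 6.76 CPM with CC. The steatotic-labelled Veh libraries were thus the lowest of all 8 and did not overlap with any other. *Acat2* was 2.10-fold lower with the label steatotic at Veh (log2 fold change -1.07 ± 0.17, adjusted p = 0.00212) and rose 1.96-fold with CC under that label (0.97 ± 0.16, adjusted p = 0.00445). With the label normal, its log2 fold change with CC was -0.26 ± 0.16, adjusted p = 0.386. *Hmgcs1* (chr13:119690379-119708260, plus strand), the cytosolic HMG-CoA synthase, was at 52.5 and 46.4 CPM in the normal-labelled Veh libraries, 34.4 and 38.5 CPM with CC, and for the label steatotic 38.2 and 36.3 CPM with Veh and 35.3 and 33.1 CPM with CC. Its 2 highest libraries were the normal-labelled Veh libraries. It fell 1.32-fold with CC under the label normal (-0.40 ± 0.087, adjusted p = 0.0239), and with the label steatotic its log2 fold change was -0.11 ± 0.087, adjusted p = 0.452. It was 1.29-fold lower with the label steatotic at Veh (-0.36 ± 0.087, adjusted p = 0.0164).

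*Mvk* (chr5:114444269-114460591, plus strand), mevalonate kinase, was at 10.5 and 9.54 CPM in the normal-labelled Veh libraries and 5.94 and 5.71 CPM with CC, and in the steatotic-labelled libraries at 7.86 and 6.77 CPM with Veh and 6.56 and 6.60 CPM with CC. Its libraries of the normal-labelled Veh group were the highest and those with CC the lowest of the 8. *Mvk* fell 1.68-fold with CC under the label normal (-0.75 ± 0.12, adjusted p = 0.00809) and was 1.33-fold lower with the label steatotic at Veh (-0.41 ± 0.12, adjusted p = 0.0397; DESeq2 adjusted p = 0.0662). *Pmvk*, phosphomevalonate kinase, ranged from 8.80 to 13.1 CPM over the 8 libraries, and *Mvd*, mevalonate diphosphate decarboxylase, from 6.68 to 8.29 CPM. Neither passed the test in any comparison with all libraries, but *Pmvk* passed as lower with CC under the label normal without normal Veh replicate 2 (-0.53, edgeR adjusted p = 0.042, against -0.37 with all). *Acat1* (chr9:53580522-53610382, minus strand), the mitochondrial thiolase of ketone body and isoleucine metabolism, lies outside this route. It was at 22.6 and 21.8 CPM in the normal-labelled Veh libraries and 13.3 and 15.2 CPM with CC, and in the steatotic-labelled libraries at 26.9 and 25.2 CPM with Veh and 17.1 and 16.9 CPM with CC. Under each label its CC libraries lay below its Veh libraries. *Acat1* fell 1.52-fold with CC under the label normal (-0.60 ± 0.088, adjusted p = 0.0043) and 1.52-fold under the label steatotic (-0.60 ± 0.087, adjusted p = 0.00208), and the 2 log2 changes differed by 0.00 (95% interval -0.28 to 0.29).

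The next 3 genes make and use isopentenyl diphosphate. *Idi1* (chr13:8885501-8892451, plus strand), the isopentenyl diphosphate isomerase, was at 13.7 and 13.5 CPM in the normal-labelled Veh libraries and at 5.01 and 4.40 CPM with CC. With the label steatotic it was at 5.68 and 6.88 CPM with Veh and 3.67 and 4.24 CPM with CC. The libraries of the normal-labelled Veh group lay well above all others. *Idi1* fell 2.81-fold with CC under the label normal (-1.49 ± 0.15, adjusted p = 0.00073), the largest fall past the threshold among the 28 genes in this comparison, and 1.57-fold under the label steatotic (-0.65 ± 0.15, adjusted p = 0.0165). It was 2.09-fold lower with the label steatotic at Veh (-1.07 ± 0.15, adjusted p = 0.00113), and with CC the difference between the labels was -0.22 ± 0.15, adjusted p = 0.313. *Fdps* (chr3:89093588-89101959, minus strand), farnesyl diphosphate synthase, was at 21.9 and 22.1 CPM in the normal-labelled Veh libraries, 12.1 and 12.02 CPM with CC, 11.2 and 10.4 CPM in the steatotic-labelled Veh libraries and 7.41 and 7.85 CPM with CC. No 2 groups overlapped, and within each group the libraries differed by less than 1 CPM. *Fdps* passed the test in all 4 comparisons between groups and under every setting tried. It fell 1.78-fold with CC under the label normal (-0.83 ± 0.087, adjusted p = 0.000934) and 1.40-fold under the label steatotic (-0.49 ± 0.087, adjusted p = 0.00567), and was 1.96-fold lower with the label steatotic at Veh (-0.97 ± 0.087, adjusted p = 0.000125) and 1.55-fold lower with CC (-0.63 ± 0.088, adjusted p = 0.00141). Of its 4208 annotated exon bases, 1124 overlap the gene model *Gm43738* on the same strand, so reads there may have been split. *Ggps1*, geranylgeranyl diphosphate synthase, which leads to protein prenylation instead of sterols, was at 26.7 and 14.3 CPM in the normal-labelled Veh libraries and 23.2 to 29.2 CPM in the other 6. Replicates 1 and 2 of the label normal with Veh differed more than any 2 groups, and *Ggps1* passed no test. Without replicate 1 it rose with CC under the label normal (log2 fold change 1.00, edgeR adjusted p = 0.00374) and was higher with the label steatotic at Veh. Its annotated exons overlap those of *Arid4b* on the other strand by 257 bases.

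From farnesyl diphosphate, 3 enzymes lead to lanosterol. *Fdft1* (chr14:63145150-63179578, minus strand), squalene synthase, was at 10.4 and 13.3 CPM in the normal-labelled Veh libraries, 9.65 and 8.44 CPM with CC, 6.94 and 8.03 CPM in the steatotic-labelled Veh libraries and 7.52 and 8.47 CPM with CC. Its normal-labelled Veh libraries were the highest of the 8. It was 1.53-fold lower with the label steatotic at Veh (-0.62 ± 0.16, adjusted p = 0.0222) and did not pass the test with CC. Its exons overlap those of *Ctsb* on the other strand by 774 bases. *Sqle* (chr15:59315077-59331192, plus strand), squalene epoxidase, was at 9.45 and 8.44 CPM in the normal-labelled Veh libraries, 4.09 and 5.25 CPM with CC, 3.53 and 3.22 CPM in the steatotic-labelled Veh libraries and 2.93 and 2.86 CPM with CC. The 4 groups formed an order without overlap, with the label normal at Veh highest and the label steatotic with CC lowest. *Sqle* fell 1.87-fold with CC under the label normal (-0.90 ± 0.16, adjusted p = 0.012). It was 2.57-fold lower with the label steatotic at Veh (-1.36 ± 0.17, adjusted p = 0.000639), the largest difference between the labels among the 28 genes, and 1.58-fold lower with CC (-0.66 ± 0.17, adjusted p = 0.021). Under the label steatotic, its change with CC was -0.21 ± 0.17, adjusted p = 0.452. *Lss* (chr10:76531588-76557138, plus strand), lanosterol synthase, was at 15.3 and 16.04 CPM in the normal-labelled Veh libraries, 14.5 and 13.5 CPM with CC, 6.59 and 7.01 CPM in the steatotic-labelled Veh libraries and 7.84 and 8.25 CPM with CC. All 4 normal-labelled libraries thus lay above the 4 labelled steatotic. *Lss* was 2.23-fold lower with the label steatotic at Veh (-1.16 ± 0.097, adjusted p = 8.90e-05) and 1.71-fold lower with CC (-0.77 ± 0.096, adjusted p = 0.000863), and neither of its changes with CC passed the test (-0.13 ± 0.095, adjusted p = 0.462 with the label normal, 0.26 ± 0.096, adjusted p = 0.101 with the label steatotic).

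Lanosterol is turned into cholesterol by the sterol steps. *Cyp51* (chr5:4081145-4104746, minus strand), lanosterol 14-alpha demethylase, was at 18.6 and 17.4 CPM in the normal-labelled Veh libraries, 7.32 and 8.61 CPM with CC, 9.10 and 11.3 CPM in the steatotic-labelled Veh libraries and 6.53 and 5.62 CPM with CC. The libraries of the normal-labelled Veh group were the highest and the steatotic-labelled CC libraries the lowest. *Cyp51* fell 2.20-fold with CC under the label normal (-1.14 ± 0.15, adjusted p = 0.00255) and 1.66-fold under the label steatotic (-0.73 ± 0.15, adjusted p = 0.0101), and was 1.71-fold lower with the label steatotic at Veh (-0.77 ± 0.15, adjusted p = 0.0058). *Dhcr7* (chr7:143823145-143848410, plus strand), the 7-dehydrocholesterol reductase of the last step of one branch, was at 19.8 and 21.1 CPM in the normal-labelled Veh libraries and 11.8 and 11.9 CPM with CC. With the label steatotic it was at 19.4 and 19.03 CPM with Veh and 10.7 and 10.96 CPM with CC. All 4 libraries with Veh lay above all 4 with CC. *Dhcr7* fell 1.68-fold with CC under the label normal (-0.75 ± 0.078, adjusted p = 0.000933) and 1.75-fold under the label steatotic (-0.81 ± 0.078, adjusted p = 0.000268). Its difference between the labels was -0.04 ± 0.077, adjusted p = 0.719 at Veh, with a 95% interval of -0.22 to 0.14.

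*Msmo1* (chr8:64718139-64733792, minus strand), the C4 methylsterol oxidase, was at 53.4 and 54.3 CPM in the normal-labelled Veh libraries and between 42.3 and 44.3 CPM in the other 6, 44.3 and 42.8 CPM for normal with CC, 42.3 and 44.1 CPM for steatotic with Veh and 42.6 and 43.4 CPM for steatotic with CC. It fell 1.21-fold with CC under the label normal (-0.27 ± 0.054, adjusted p = 0.0169) and was 1.21-fold lower with the label steatotic at Veh (-0.27 ± 0.054, adjusted p = 0.00685). *Sc5d* (chr9:42251595-42264256, minus strand), lathosterol desaturase, was at 21.1 and 21.99 CPM in the normal-labelled Veh libraries, 18.7 and 17.3 CPM with CC, 14.1 and 15.6 CPM in the steatotic-labelled Veh libraries and 17.02 and 15.7 CPM with CC. It was 1.40-fold lower with the label steatotic at Veh (-0.49 ± 0.091, adjusted p = 0.00533). *Hsd17b7* (chr1:169949535-169969241, minus strand), the 3-keto sterol reductase, was at 3.70 and 3.58 CPM in the normal-labelled Veh libraries, 1.95 and 2.66 CPM with CC, 1.62 and 1.59 CPM in the steatotic-labelled Veh libraries and 1.74 and 1.23 CPM with CC. Its libraries of the normal-labelled Veh group were the highest. It was 2.19-fold lower with the label steatotic at Veh (-1.13 ± 0.24, adjusted p = 0.0103). The remaining 4 genes of these steps passed at most 1 test. *Ebp*, the sterol isomerase, ranged from 44.6 to 57.1 CPM, and with CC it was 1.16-fold higher with the label steatotic (0.21 ± 0.066, adjusted p = 0.047; DESeq2 adjusted p = 0.0786). *Nsdhl* (the C4 decarboxylating dehydrogenase) at 14.8 to 21.9 CPM, *Lbr* at 21.7 to 33.3 CPM and *Tm7sf2* at 1.38 to 2.85 CPM passed no test with all libraries. *Nsdhl* passed as lower with CC under the label normal without normal CC replicate 2 (-0.52, edgeR adjusted p = 0.0322, against -0.34 with all), and *Lbr* as lower with the label steatotic at Veh without steatotic Veh replicate 1 (-0.44, edgeR adjusted p = 0.0417, against -0.28). *Lbr* and *Tm7sf2* both encode sterol C14 reductases, and LBR is also a protein of the inner nuclear membrane. *Tm7sf2* shares 532 exon bases with *Vps51* on the same strand.

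Of the 6 regulators, *Srebf2* (chr15:82147181-82205379, plus strand), which encodes SREBP2 itself, was at 81.9 and 112 CPM in the normal-labelled Veh libraries, 74.2 and 73.5 CPM with CC, 78.7 and 82.2 CPM in the steatotic-labelled Veh libraries and 53.4 and 40.8 CPM with CC. Its lowest libraries were the steatotic-labelled CC libraries, and the 2 replicates of the normal-labelled Veh group stood far apart. *Srebf2* fell 1.69-fold with CC under the label steatotic (-0.76 ± 0.19, adjusted p = 0.0378; DESeq2 adjusted p = 1.33e-05). With CC, its difference between the labels was -0.62 ± 0.19, adjusted p = 0.0578 by edgeR and adjusted p = 0.000439 by DESeq2, and it passed under 6 of 17 other settings. With the label normal, its change with CC was -0.36 ± 0.18, adjusted p = 0.306. *Scap* (chr9:110333288-110384950, plus strand), the sterol sensor that escorts SREBP2, was at 62.2 and 63.01 CPM in the normal-labelled Veh libraries, 56.2 and 55.8 CPM with CC, 46.9 and 52.98 CPM in the steatotic-labelled Veh libraries and 37.7 and 37.5 CPM with CC. The 4 groups did not overlap. *Scap* fell 1.31-fold with CC under the label steatotic (-0.39 ± 0.065, adjusted p = 0.00388) and was 1.21-fold lower with that label at Veh (-0.28 ± 0.065, adjusted p = 0.0139) and 1.46-fold lower with CC (-0.55 ± 0.065, adjusted p = 0.000655). *Insig1* (chr5:28071363-28078662, plus strand), which retains SCAP and is itself a target of SREBP2, was at 32.9 and 34.00 CPM in the normal-labelled Veh libraries, 18.3 and 21.1 CPM with CC, 19.3 and 20.2 CPM in the steatotic-labelled Veh libraries and 14.7 and 16.4 CPM with CC. The libraries of the normal-labelled Veh group were the highest, and the normal-labelled CC and steatotic-labelled Veh libraries overlapped. *Insig1* fell 1.65-fold with CC under the label normal (-0.72 ± 0.096, adjusted p = 0.00281) and 1.25-fold under the label steatotic (-0.33 ± 0.096, adjusted p = 0.0458). Between the labels it was 1.64-fold lower at Veh (-0.71 ± 0.096, adjusted p = 0.00105) and 1.25-fold lower with CC (-0.32 ± 0.096, adjusted p = 0.0434).

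*Insig2*, the other INSIG gene, ranged from 20.1 to 22.6 CPM and passed no test, with 95% intervals for its log2 change with CC of -0.03 to 0.29 with the label normal and -0.05 to 0.27 with the label steatotic. Of the proteases that cut SREBP2, *Mbtps1* (site-1) ranged from 46.5 to 55.8 CPM and passed no test. *Mbtps2* (site-2, chrX:157535371-157598715, minus strand) was at 46.3 and 49.6 CPM in the normal-labelled Veh libraries, 49.5 and 47.96 CPM with CC, 46.6 and 49.2 CPM in the steatotic-labelled Veh libraries and 39.98 and 40.1 CPM with CC. Its 2 lowest libraries were the steatotic-labelled CC libraries. *Mbtps2* fell 1.18-fold with CC under the label steatotic (-0.24 ± 0.06, adjusted p = 0.0238) and was 1.196-fold lower with that label with CC (-0.26 ± 0.06, adjusted p = 0.0155). It shares 2867 exon bases with *Yy2* on the same strand. *Stard4*, on chromosome 18 and encoding a soluble carrier of cholesterol, was at 6.83 and 7.13 CPM in the normal-labelled Veh libraries, 1.23 and 3.31 CPM with CC, 5.77 and 5.72 CPM in the steatotic-labelled Veh libraries and 2.93 and 2.95 CPM with CC. All 4 libraries with CC lay below all 4 with Veh, but replicates 1 and 2 of the normal-labelled CC group stood far apart. Its log2 change with CC was -1.59 ± 0.40, adjusted p = 0.0522 with the label normal and -0.95 ± 0.39, adjusted p = 0.146 with the label steatotic by edgeR, while DESeq2 gave adjusted p = 0.000413 and 0.047. With the label normal it passed under 5 of 17 other settings, at -1.04, edgeR adjusted p = 0.0173 without normal CC replicate 1 and -2.46, edgeR adjusted p = 0.00113 without normal CC replicate 2. With the label steatotic it passed under 4, among them without either of these libraries. Without normal CC replicate 2 it was also higher with the label steatotic in the CC comparison (1.28, edgeR adjusted p = 0.00408).

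The first comparison asked how CC changed these genes in macrophages with the label normal. Here 10 of the 28 genes fell and 0 rose, where 5.54% of all tested genes fell and 6.27% rose. At an unadjusted p under 0.05 edgeR found 0 rises too, and DESeq2 called 0 rises and 11 falls. The genes that fell were *Acat1*, 2 of the 5 mevalonate genes (*Hmgcs1*, *Mvk*), 2 of the 3 isoprenoid genes (*Idi1*, *Fdps*), 1 of the 3 squalene genes (*Sqle*), 3 of the 9 sterol genes (*Cyp51*, *Msmo1*, *Dhcr7*) and 1 of the 6 regulators (*Insig1*). The median log2 change of the 28 genes was -0.34, with 25 below 0 and 3 above, and that of all tested genes -0.00059. Over all tested genes 953 rose and 842 fell, against 809 and 1110 when only the library size was used for scaling. Without replicate 1 of the normal-labelled Veh group, 6 genes fell and 1, *Ggps1*, rose. Under all 17 other settings, 8 of which leave out 1 library each, *Acat1*, *Idi1*, *Fdps*, *Cyp51*, *Dhcr7* and *Insig1* kept their calls. The call was lost for *Hmgcs1* without normal Veh replicate 1 or normal CC replicate 1 (adjusted p up to 0.129), *Mvk* without normal Veh replicate 1 or normal CC replicate 2 (adjusted p up to 0.0538), *Sqle* without normal Veh replicate 1 or normal CC replicate 1 (adjusted p up to 0.0741) and *Msmo1* without normal Veh replicate 1, normal Veh replicate 2, normal CC replicate 1 or normal CC replicate 2 (adjusted p up to 0.0973). The summed hepatocyte level was 69.6 to 72.6 CPM with Veh and 60.5 to 71.5 CPM with CC, and 0 of its 13 tested genes passed the test by edgeR or DESeq2 (0 at an unadjusted p under 0.05). The summed level of 11 macrophage genes was 17912 to 18402 CPM with Veh and 14293 to 14673 CPM with CC, with 8 of them lower and 0 higher (0 also by DESeq2 and at an unadjusted p under 0.05 by edgeR). With Veh and CC the summed levels were 144 to 149 and 169 to 174 CPM for the endothelial list (1 of 6 tested genes higher, 1 lower), 90.2 to 91.2 and 74.1 to 76.00 CPM for the neutrophil list (1 of 2 higher, 1 lower) and 3.08 to 3.19 and 5.95 to 7.64 CPM for the stellate list (its 1 tested gene higher). They were 2.39 to 2.42 and 1.89 to 2.31 CPM for the T or NK cell list (1 of 8 lower). The part of these cells in the results was not tested.

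With the label steatotic, the same treatment lowered 9 of the 28 genes and raised 1, *Acat2*, where 10.9% of all tested genes fell and 12% rose. *Idi1*, *Fdps*, *Cyp51*, *Dhcr7*, *Acat1* and *Insig1* fell, as did 3 further regulators, *Srebf2*, *Scap* and *Mbtps2*. None of the 3 squalene genes passed the test, and by branch the median log2 changes were -0.03 for the mevalonate genes, -0.49 for the isoprenoid genes, 0.11 for the squalene genes, -0.13 for the sterol genes and -0.28 for the regulators. The median over the 28 genes was -0.15, with 20 below 0 and 8 above, and that of all tested genes 0. Under all 17 other settings, 8 of which leave out 1 library each, *Acat1*, *Acat2*, *Fdps*, *Dhcr7* and *Scap* kept their calls. The call was lost for *Idi1* without steatotic Veh replicate 2 or steatotic CC replicate 1 (adjusted p up to 0.0987), *Cyp51* without steatotic Veh replicate 2 or steatotic CC replicate 2 (adjusted p up to 0.0614), *Srebf2* without each of 5 libraries and under 2 other settings (adjusted p up to 0.152), *Insig1* without each of 6 libraries and under 1 other setting (adjusted p up to 0.213) and *Mbtps2* without steatotic Veh replicate 2, steatotic CC replicate 1 or steatotic CC replicate 2 (adjusted p up to 0.134). The falls numbered 4 without replicate 2 of the steatotic-labelled Veh group and 5 without replicate 2 of the steatotic-labelled CC group. Of the genes that fell with CC, 6 did so under both labels, 60% of those with the label normal and 66.7% of those with the label steatotic, and these comparisons share no library. Over all tested genes the corresponding shares were 79.2% and 40.4%. In this comparison 0 of 13 hepatocyte genes passed by edgeR (1 lower at an unadjusted p under 0.05, and 1 higher by DESeq2). The summed macrophage level was 14800.1 to 15057 CPM with Veh and 12030.0 to 13346 CPM with CC, with 2 of 11 genes higher and 8 lower. The summed level of the stellate list was 18.03 to 21.5 and 108 to 136 CPM (1 of its 7 genes was tested and was higher). With Veh and CC the summed levels were 327 to 334 and 256 to 264 CPM for the endothelial list (3 of 6 tested genes higher, 2 lower), 155 to 160.3 and 144 to 147 CPM for the neutrophil list (1 of 2 higher, 1 lower) and 2.59 to 2.88 and 0.854 to 1.26 CPM for the B cell list (1 of 3 lower). They were 212 to 213 and 236 to 239 CPM for the proliferation list (1 of 6 higher). The part of these cells in the results was not tested.

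**Figure D3:**
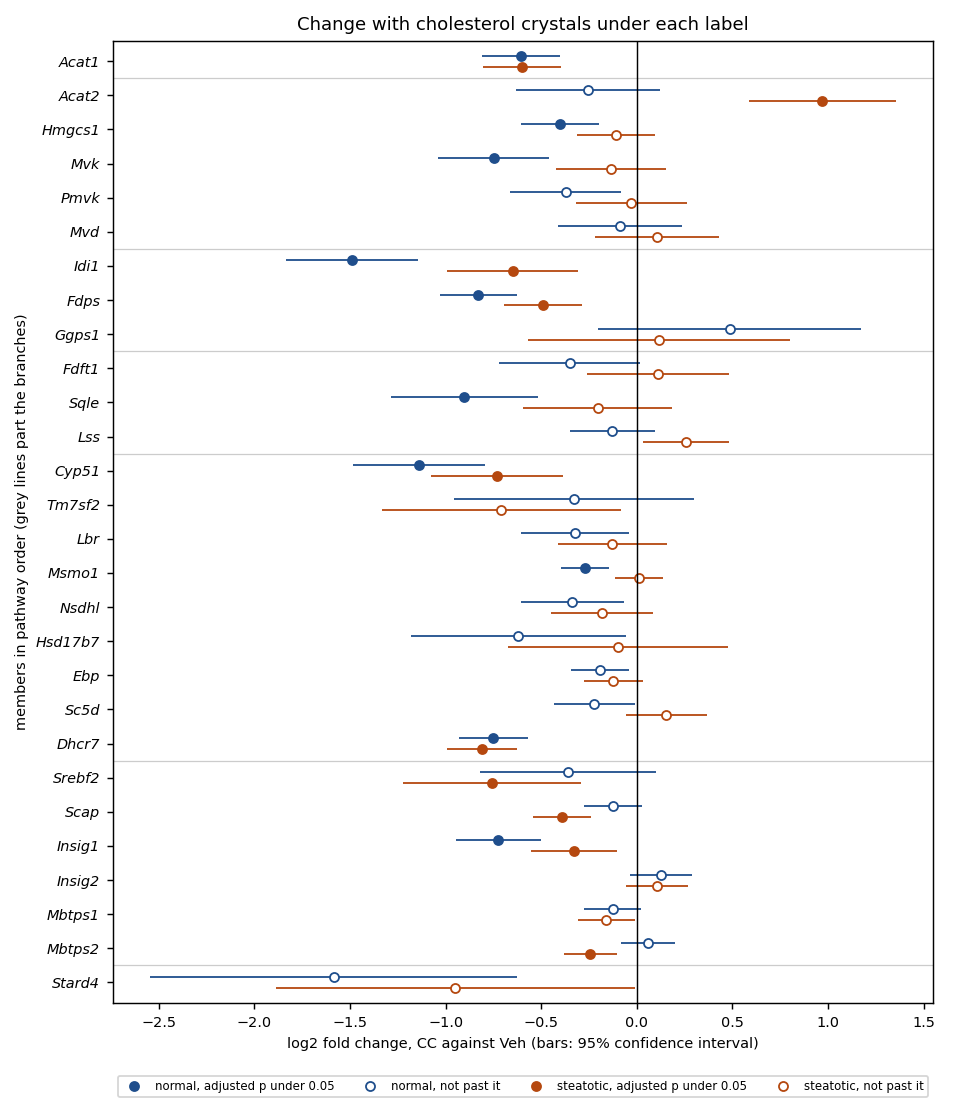
Log2 fold change of each of the 28 genes with CC against Veh (x axis) in pathway order (y axis), for the label normal (blue) and steatotic (orange). Bars are 95% confidence intervals and filled points have an adjusted p under 0.05. *Idi1*, *Fdps*, *Cyp51* and *Dhcr7* lie left of 0 under both labels, and *Acat2* lies right of 0 only under the label steatotic.

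The difference between the CC responses, tested as an interaction, asked which genes responded differently by label. *Acat2* alone passed, with its log2 change 1.23 ± 0.23 higher under the label steatotic (95% interval 0.69 to 1.77, adjusted p = 0.035; DESeq2 adjusted p = 0.0036). That is 1 gene of 28 higher and 0 lower, where 1.95% of all tested genes were higher and 1.27% lower. At an unadjusted p under 0.05 edgeR gave 10 genes higher and 2 lower, and DESeq2 called 1 higher and 0 lower. The median difference of the 28 genes was 0.29, with 20 above 0 and 8 below, against 0.0053 for all tested genes. By the size of the difference *Idi1* was next, at 0.84 ± 0.21, adjusted p = 0.0866 (DESeq2 adjusted p = 0.0535), followed by *Sqle* at 0.70 ± 0.23, adjusted p = 0.213. The falls of *Hmgcs1*, *Mvk*, *Sqle* and *Msmo1* under the label normal and those of *Srebf2*, *Scap* and *Mbtps2* under the label steatotic are therefore not shown to differ by label, with differences between -0.40 for *Srebf2* and 0.70 for *Sqle*. The call of *Acat2* was lost without each of 7 libraries in turn (it held without replicate 2 of the normal-labelled Veh group) and with a replicate block, with adjusted p up to 0.11. Without replicate 1 of the normal-labelled Veh group the difference of *Ggps1* passed the test as lower, and without replicate 2 of the normal-labelled CC group that of *Stard4* passed as higher. *Acat2* has a near copy, *Acat3*, which was at 0.326 and 0.317 CPM in the normal-labelled Veh libraries, 0.272 and 0.307 CPM with CC, 0.0878 and 0.109 CPM in the steatotic-labelled Veh libraries and 2.62 and 0.201 CPM with CC. *Acat3* was higher in replicate 1 of the steatotic-labelled CC group than in any other library, where *Acat2* was at 5.86 CPM, below replicate 2. How reads were split between the copies is not stated, and their part in the result was not tested.

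The comparison of the labels at Veh asked how these genes differed without crystals. With the label steatotic, 14 of the 28 genes were lower and 1, *Acat1*, was higher, where 14.3% of all tested genes were lower and 16.4% higher. Lower were 3 of the 5 mevalonate genes (*Acat2*, *Hmgcs1*, *Mvk*), 2 of the 3 isoprenoid genes (*Idi1*, *Fdps*), all 3 squalene genes (*Fdft1*, *Sqle*, *Lss*), 4 of the 9 sterol genes (*Cyp51*, *Msmo1*, *Hsd17b7*, *Sc5d*) and 2 of the 6 regulators (*Scap*, *Insig1*). The median log2 differences by branch were -0.36, -0.97, -1.16, -0.27 and -0.10 in this order. Over the 28 genes the median was -0.27, with 21 below 0 and 7 above, against -0.0095 over all tested genes. *Acat1* was 1.21-fold higher (0.28 ± 0.087, adjusted p = 0.0476; DESeq2 adjusted p = 0.0673). Under all 17 other settings, 8 of which leave out 1 library each, *Acat2*, *Idi1*, *Fdps*, *Sqle*, *Lss*, *Cyp51*, *Sc5d* and *Insig1* kept their calls. The call was lost for *Acat1* without each of 6 libraries and under 5 other settings (adjusted p up to 0.2), *Hmgcs1* without normal Veh replicate 1 or steatotic Veh replicate 2 (adjusted p up to 0.0952), *Mvk* without each of 8 libraries and under 3 other settings (adjusted p up to 0.196), *Fdft1* without normal Veh replicate 2 or steatotic Veh replicate 1 (adjusted p up to 0.124), *Msmo1* without steatotic Veh replicate 1 (adjusted p up to 0.0525), *Hsd17b7* without steatotic Veh replicate 2 (adjusted p up to 0.0527) and *Scap* without normal Veh replicate 2 or steatotic Veh replicate 1 (adjusted p up to 0.0779). In this comparison 11 of 13 tested hepatocyte genes were lower and 0 higher with the label steatotic, and 8 of 8 T or NK cell genes and 5 of 6 endothelial genes were higher (1 lower). With the label normal and steatotic the summed levels were 3.08 to 3.19 and 18.03 to 21.5 CPM for the stellate list (its 1 tested gene higher), 90.2 to 91.2 and 155 to 160.3 CPM for the neutrophil list (1 of 2 higher, 1 lower) and 3.61 to 4.24 and 9.32 to 9.60 CPM for the dendritic list (2 of 5 higher, 1 lower). They were 5.65 to 7.88 and 9.95 to 11.3 CPM for the cholangiocyte list (1 of 4 higher) and 268 to 270.4 and 212 to 213 CPM for the proliferation list (2 of 6 higher, 2 lower). Of 11 macrophage genes 6 were higher and 4 lower. Of those known from resident Kupffer cells, *Clec4f* (-0.50 ± 0.078, adjusted p = 0.00218) and *Marco* (-1.93 ± 0.15, adjusted p = 0.000313) were lower, and *Vsig4* (0.93 ± 0.067, adjusted p = 4.30e-05), *Timd4* (0.83 ± 0.15, adjusted p = 0.00417) and *Cd5l* (0.75 ± 0.087, adjusted p = 0.00117) were higher. Without replicate 1 of the normal-labelled Veh group, *Ggps1* was also higher (log2 fold change 0.77, edgeR adjusted p = 0.00309, against 0.25 with all libraries). The part of these cell types in the results was not tested.

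With CC in both, 6 of the 28 genes were lower with the label steatotic and 2 higher, where 12.9% of all tested genes were lower and 15.9% higher. *Fdps*, *Sqle* and *Lss* and the regulators *Scap*, *Insig1* and *Mbtps2* were lower, and *Acat1* (0.28 ± 0.088, adjusted p = 0.049) and *Ebp* were higher. None of the 5 mevalonate genes passed the test. The median over the 28 genes was -0.09, with 18 below 0 and 10 above, against 0.0026 over all tested genes. The genes lower numbered 3 without replicate 2 of the steatotic-labelled CC group. Under all 17 other settings, 8 of which leave out 1 library each, *Fdps*, *Lss* and *Scap* kept their calls. The call was lost for *Acat1* without each of 7 libraries and under 8 other settings (adjusted p up to 0.228), *Sqle* without normal CC replicate 2, steatotic CC replicate 1 or steatotic CC replicate 2 and under 1 other setting (adjusted p up to 0.109), *Ebp* without each of 6 libraries and under 6 other settings (adjusted p up to 0.178), *Insig1* without each of 7 libraries and under 1 other setting (adjusted p up to 0.213) and *Mbtps2* without normal CC replicate 1, steatotic CC replicate 1 or steatotic CC replicate 2 (adjusted p up to 0.081). By DESeq2 7 genes were lower and 0 higher. Again 11 of 13 hepatocyte genes were lower (1 higher), and 8 of 8 T or NK cell genes were higher with the label steatotic. Of the other lists, 4 of 6 endothelial genes were higher (summed 169 to 174 and 256 to 264 CPM with the label normal and steatotic), as were the tested stellate gene (5.95 to 7.64 and 108 to 136 CPM) and 1 of 2 neutrophil genes (74.1 to 76.00 and 144 to 147 CPM), and of 11 macrophage genes 6 were higher and 4 lower. The summed levels were 7.41 to 8.56 and 10.8 to 13.7 CPM for the cholangiocyte list (1 of 4 higher), 4.85 to 5.54 and 7.36 to 8.71 CPM for the dendritic list (1 of 5 higher, 1 lower) and 272 to 280.1 and 236 to 239 CPM for the proliferation list (2 of 6 higher, 2 lower). The part of these cells in the results was not tested.

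**Figure D4:**
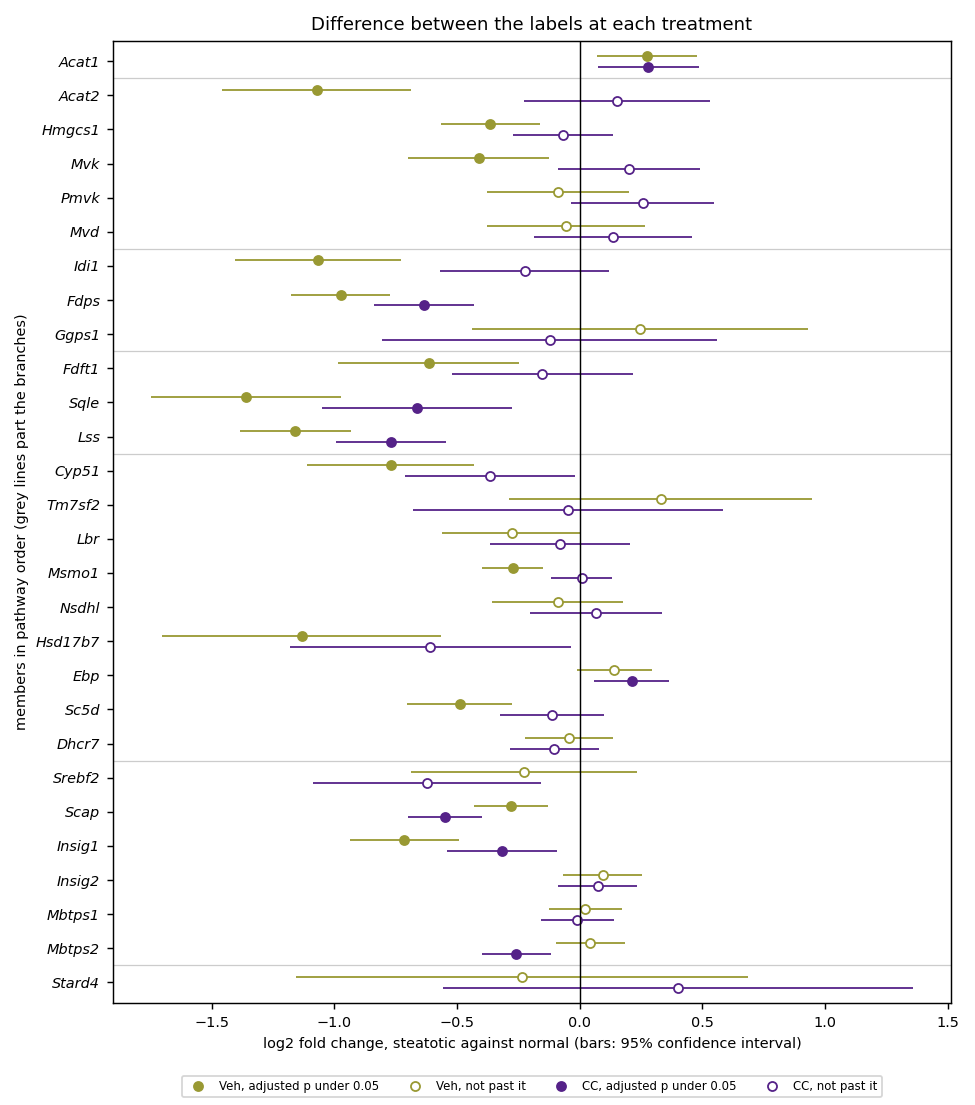
Log2 fold change of each of the 28 genes, steatotic against normal (x axis), in pathway order (y axis), at Veh (olive) and with CC (purple). Bars are 95% confidence intervals and filled points have an adjusted p under 0.05. *Sqle*, *Lss*, *Hsd17b7*, *Idi1*, *Acat2* and *Fdps* lie near or below -1 at Veh, and with CC *Lss*, *Sqle* and *Fdps* are still past the threshold.

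Other genes around the pathway were read from lists, each described by its counts. Fatty acid synthesis is the branch driven chiefly by the sister factor SREBP1. Of 13 genes in that list, 3 rose and 1 fell with CC under the label normal, and 6 rose and 2 fell under the label steatotic, with median log2 changes of 0.24 and 0.43. Of all tested genes 6.27% rose and 5.54% fell under the label normal, and 12% rose and 10.9% fell under the label steatotic. *Scd1*, a stearoyl-CoA desaturase, was at 28.05 and 24.6 CPM in the normal-labelled Veh libraries, 60.7 and 56.98 CPM with CC, 23.3 and 23.2 CPM in the steatotic-labelled Veh libraries and 101 and 98.95 CPM with CC, so that the 4 libraries with CC were the highest. It rose with CC under both labels (1.198 ± 0.073, adjusted p = 9.12e-05 and 2.12 ± 0.074, adjusted p = 2.92e-06), and the rise was larger under the label steatotic (difference 0.92 ± 0.10, adjusted p = 0.0051). In the test of this difference 1 gene of the list was higher and 1 lower, where 1.95% of all tested genes were higher and 1.27% lower. *Scd2* (2.24 ± 0.44, adjusted p = 0.0221) and the malic enzyme gene *Me1* (0.85 ± 0.19, adjusted p = 0.0141) also rose with the label steatotic. *Srebf1*, which encodes SREBP1, rose under both labels (0.24 ± 0.052, adjusted p = 0.0239 with the label normal and 0.43 ± 0.052, adjusted p = 0.000821 with the label steatotic). The desaturase gene *Fads1* went the other way, from 53.7 and 50.3 to 36.9 and 37.7 CPM with the label normal (-0.44 ± 0.062, adjusted p = 0.00359) and from 52.9 and 55.6 to 25.3 and 26.5 CPM with the label steatotic (-1.05 ± 0.063, adjusted p = 2.44e-05). Between the labels at Veh, 3 genes of this list were lower and 0 higher by edgeR (2 higher at an unadjusted p under 0.05, 0 by DESeq2).

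**Figure D5:**
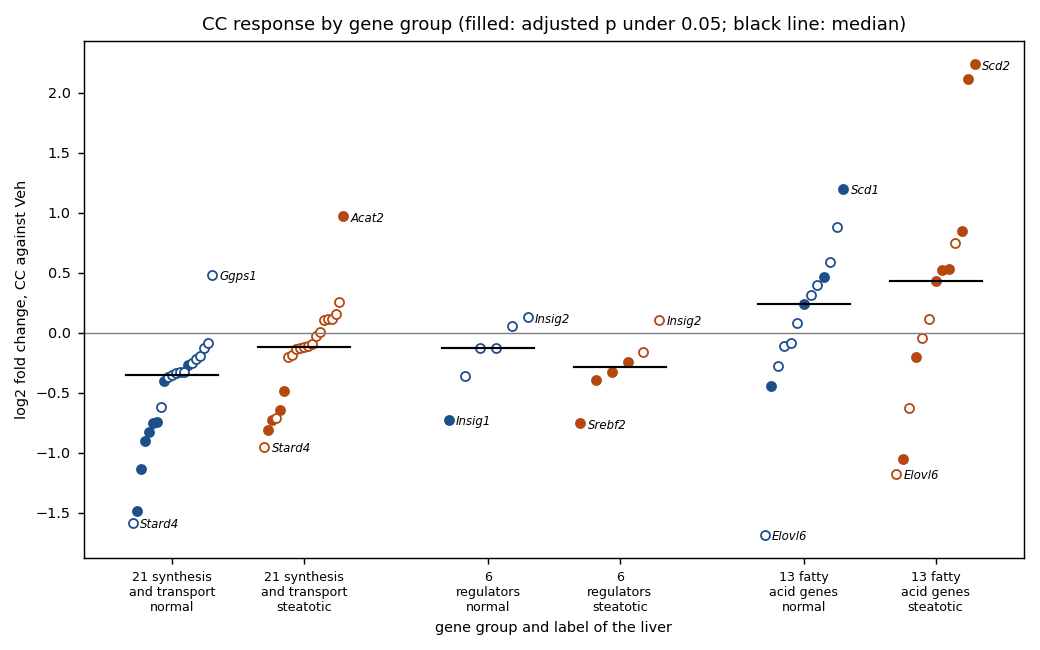
Log2 fold change with CC against Veh (y axis) for the 21 genes of synthesis and transport, the 6 regulators and the 13 fatty acid genes, with the label normal (blue) and steatotic (orange) on the x axis. Each point is a gene, filled where the adjusted p was under 0.05, and black lines are medians. The medians of the synthesis genes and regulators lie below 0 and those of the fatty acid genes above.

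The other lists hold genes that act on or beside the pathway. Their counts with CC are to be read against the shares of all tested genes just given, and those at Veh against the 16.4% higher and 14.3% lower with the label steatotic. Among 13 further genes of SREBP control, 1 rose and 0 fell with CC under the label normal and none passed under the label steatotic (1 rise and 1 fall at an unadjusted p under 0.05, and 0 by DESeq2). The ubiquitin ligase gene *Rnf145* was the 1 that rose (0.22 ± 0.053, adjusted p = 0.0335). It was also higher with the label steatotic at Veh (0.66 ± 0.053, adjusted p = 7.07e-05), where 1 gene of the list was higher and 1 lower (1 and 0 by DESeq2). Among 12 genes that use isoprenoids, 2 rose with CC under the label normal and 1 under the label steatotic, and 2 were lower with the label steatotic at Veh. The counts under the label steatotic and at Veh were near the shares of all tested genes. Among the genes that passed, *Nus1*, for dolichol synthesis, rose under both labels (0.28 ± 0.039, adjusted p = 0.00346 and 0.56 ± 0.039, adjusted p = 5.16e-05) and was lower with the label steatotic at Veh (-0.46 ± 0.039, adjusted p = 9.61e-05). Of 6 other sterol pathway genes in the table, 3 rose with CC under the label normal and 2 under the label steatotic, and 3 were lower with the label steatotic at Veh. At an unadjusted p under 0.05 edgeR also found falls with CC, 3 under the label normal and 1 under the label steatotic. *Cyb5a* (0.35 ± 0.058, adjusted p = 0.00785 and 0.52 ± 0.059, adjusted p = 0.000578) and *Cyb5r3* (0.16 ± 0.036, adjusted p = 0.0262 and 0.29 ± 0.036, adjusted p = 0.000881), which pass electrons to sterol enzymes, rose with CC under both labels. Of 3 tested oxysterol enzymes, 2 were higher with the label steatotic at Veh by edgeR and 1 by DESeq2. *Cyp27a1* fell with CC under both labels (-0.87 ± 0.097, adjusted p = 0.0012 and -1.03 ± 0.097, adjusted p = 0.000223) and *Ch25h* fell with the label steatotic (-0.56 ± 0.16, adjusted p = 0.043). The products of these 2 enzymes, side-chain oxysterols, bind INSIG proteins. Of 8 genes of sterol transport to the endoplasmic reticulum, 2 rose with CC under the label normal, 2 rose and 2 fell under the label steatotic, and 1 was higher and 1 lower with the label steatotic at Veh. *Gramd1b*, which encodes a carrier from the plasma membrane to that organelle, rose from 50.2 and 53.02 to 109.8 and 119 CPM with the label normal (1.18 ± 0.063, adjusted p = 5.32e-05) and from 82.5 and 76.9 to 126 and 120.2 CPM with the label steatotic (0.64 ± 0.062, adjusted p = 0.000263). *Npc2*, which encodes the lysosomal cholesterol-binding protein, rose (0.28 ± 0.033, adjusted p = 0.000683) and *Stard3* (-0.30 ± 0.049, adjusted p = 0.00386) and *Lipa* (-0.17 ± 0.029, adjusted p = 0.00473) fell with the label steatotic.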

How the data were processed

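Poly(A) RNA from cultured mouse hepatic macrophages was measured in 8 libraries (directional kit, 150 bp paired-end reads). The authors deposited estimated counts per gene, made by trimming with fastp, alignment to mm10 with HISAT2 and quantification with StringTie, with versions and the use of strand not given in the sources used here. The deposited estimated counts are whole numbers, and multiples of 4 made up 35.0 to 36.5% of values from 1 to 20 against 23.9 to 27.0% of values from 100 to 1000, so about 4 counts appear to stand for 1 fragment and 3 counts (0.0403 to 0.0511 CPM) for less than that. Totals were 58668655 to 74529462. Groups came from the labels.

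Genes at 0.5 CPM or more in at least 1 library (15202) were fitted with edgeR 4.0.16 (R 4.3.3; quasi-likelihood, robust, TMM scaling, 1 coefficient per group over all 8 libraries), with Benjamini-Hochberg adjustment over all of them and a threshold of 0.05. Standard errors were derived from the F statistic. The fit was tested on simulated data, where it recovered fewer of the changes put in for the difference between the CC responses than for CC against Veh. DESeq2 1.42.0, other scalings, filters, prior counts, a replicate block, a fit on 4 libraries, division by 4 and leaving out each library were alternatives. All 28 genes are named, with the value of every library for those that passed between treatments, at Veh or in the difference. Of other lists, at most 4 genes that passed per comparison, and defining markers, are named. The printed promoters are that holding the sterol response element and those of the 2 genes with a window that passed and changed most between 2 groups. The genes and lists were chosen with earlier results of these data known. Exons and overlaps are from GENCODE M21 and promoters from RefSeq (GRCm38.p6). Figures were drawn with matplotlib 3.10.9.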

Additional observations from a re-analysis of the deposited data

Results flagged for a closer look

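*Acat2* was singled out because its log2 change with CC differed between the labels, by 1.23 (steatotic minus normal), in a test of the difference itself. The adjusted p of edgeR was 0.035, with a rise in both libraries labelled steatotic with CC over both with Veh. This call was lost under 8 of 16 other settings, and without 1 library the difference ranged from 1.05 to 1.38. It is 1 of the 28 genes (3.57%), where 1.95% of all tested genes were higher.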

How the results depend on the processing

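Of 2352 values for single genes under other settings, 2178 kept their direction and side of the threshold, 111 lost a call, 23 gained one and 40 changed sign, 0 of the last being called values. The count of genes higher between the labels at Veh was 0 under DESeq2, library size only, any count, the replicate block and only the 4 libraries. With CC it was 0 under DESeq2, its size factors, library size only, 0.5 CPM in at least 2 libraries, the replicate block and only the 4 libraries, and 1 with any count or counts divided by 4. The count higher for the difference was 0 with the replicate block, which left 0 rises and 10 falls with CC under the label normal, 1 and 8 under the label steatotic, and 14 and 6 genes lower between the labels at Veh and with CC. The labels do not say that replicate numbers pair libraries, and deviations of same-numbered libraries correlated by -0.031 to 0.041 over 9160 genes. Without 1 library each, the genes higher and lower numbered 0 to 1 and 11 to 13 between the labels at Veh, 0 to 1 and 6 to 10 with CC under the label normal, 1 and 4 to 9 under the label steatotic, 0 to 2 and 3 to 6 between the labels with CC, and 0 to 1 and 0 to 1 for the difference, the remaining library of a group being assumed to vary like the others. Signs changed under library size only for *Mbtps1* (-0.023) and *Mbtps2* (-0.0014) at Veh and for *Msmo1* with CC under the label steatotic (-0.0070) and between the labels with CC (-0.017, and -0.00053 with only the 4 libraries), and for the difference of *Acat1* with DESeq2 (-0.0016), its size factors (-0.0020) and 0.5 CPM in at least 2 libraries (-0.0024). The log2 changes that changed sign without 1 library ranged for *Pmvk* -0.242 to 0.0882, *Mbtps1* -0.0428 to 0.0874, *Mbtps2* -0.00562 to 0.0979, *Mvd* -0.161 to 0.0517, *Ggps1* -0.13 to 0.765, *Dhcr7* -0.0889 to 0.00461, *Srebf2* -0.438 to 0.022 between the labels at Veh. They ranged for *Mvd* -0.186 to 0.0217 with CC under the label normal. They ranged for *Lbr* -0.278 to 0.0321, *Msmo1* -0.0267 to 0.0397, *Hsd17b7* -0.365 to 0.132 with CC under the label steatotic. They ranged for *Tm7sf2* -0.249 to 0.192, *Nsdhl* -0.0925 to 0.244, *Stard4* -0.144 to 1.28, *Hmgcs1* -0.146 to 0.0156, *Msmo1* -0.0154 to 0.0329, *Lbr* -0.167 to 0.00192, *Mbtps1* -0.0243 to 0.0038 between the labels with CC. They ranged for *Acat1* -0.0865 to 0.101, *Ebp* -0.0135 to 0.139, *Mbtps1* -0.0976 to 0.0253, *Ggps1* -0.888 to 0.000195, *Nsdhl* -0.00329 to 0.334, *Insig2* -0.0519 to 0.00209 for the difference between the CC responses. Over all tested genes, 2489 were higher and 2176 lower between the labels at Veh, against 2210 and 2685 with library size only, and 953 rose and 842 fell with CC under the label normal, against 809 and 1110 with library size only and 934 and 962 with any count. For the difference, 297 were higher and 193 lower, against 430 and 307 by DESeq2. Without 1 library they numbered as few as 186 and 101, the rises and falls with CC under the label normal 562 and 452, the falls under the label steatotic 1062 (1653 with all) and the genes lower between the labels with CC 1279 (1966 with all). The difference needs all 8 libraries, so it was not fitted on 4. With 2 libraries per group, *Stard4* had the largest standard errors among the 28 genes.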
